A study of Sus scrofa domesticus with 4 samples.

Results

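Of 8 cytokine genes asked about, IL6, CXCL2, CXCL8, IL1A, IL1B, IL1RN, IL18 and LIF, 7 were matched on the array through the RefSeq accession of a non-control probe; IL1RN was not matched and is not analysed here. These 7 genes had 10 of the 43603 probes on the array, and 9 of the 10 were among the 26927 probes tested. The tissue was endometrium, the lining of the uterus, from 4 crossbred gilts (Large White x Polish Landrace, aged 7 to 8 months) on days 15 to 16 of gestation. Slices were kept in medium for 2 h and then for 24 h either with orexin A (OXA), a neuropeptide hormone, or with no addition. The OXA dose was 10 nM in the sample labels but 10 µM in the description of the design. Each of 4 two-colour arrays set 1 OXA-treated RNA against 1 untreated RNA, and the comparison asks how OXA altered the level of each transcript. Slices of whole tissue hold epithelium, stroma, vessels and immune cells, and in such samples fewer cells of a type and less RNA per cell cannot be told apart.

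IL6 and LIF are cytokines that signal through receptor complexes holding the shared chain IL6ST, which activates the kinases JAK1, JAK2 and TYK2 and the transcription factor STAT3. CXCL2 and CXCL8 are chemokines that attract neutrophils through the receptor CXCR2. IL1A and IL1B act on the receptor IL1R1, IL1RN blocks that receptor, and IL18 is a relative that is matured, like IL1B, by the protease CASP1. In early pregnancy of the pig the elongating conceptus secretes the closely related IL1B2, and the endometrium meets it with local cytokine production.

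Unless a level is named, values are log2 ratios with OXA in the numerator, so that a negative value means less transcript with OXA. By the channel labels of each sample, OXA carried Cy5 on arrays 1 and 3, and Cy3 on arrays 2 and 4. A protocol text shared by all samples instead puts OXA in Cy5 throughout, and values under that reading are given near the end. Between 62.4% and 74.5% of probes were well above background in Cy5, and between 52.1% and 56.7% in Cy3 on arrays 2 to 4, but only 31.8% in Cy3 on array 1, which lay on another slide and was scanned 71 days apart from the rest. No spot was saturated. Over the probes tested the ratios of arrays 1 and 2 correlated at 0.44 and those of arrays 3 and 4 at -0.29, a description across probes that share their arrays. Limma's test found 0 of 26927 probes past an adjusted p of 0.05 (0%), and 1.89% had an unadjusted p under 0.05. The number of arrays limits the precision.

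IL6, the founding cytokine of its family and a driver of acute inflammation, was lower with OXA on every array by its brighter probe (A_72_P177826). The scanner read a median intensity of 21974 for OXA in Cy5 against 17989 for control in Cy3 on array 1, and 52249.5 against 12799.5 on array 3. With the dyes turned, OXA in Cy3 read 12198 against 59036 on array 2 and 2079 against 11769 on array 4. The dye in Cy5 was thus the higher reading on all arrays before normalization, whichever RNA it carried. After each array was normalized the ratios were -0.80, -0.49, -0.29 and -1.01 on arrays 1 to 4, all below 0. Of all probes tested 4.25% were below 0 on 4 of 4 arrays. The mean was -0.65 ± 0.32 (SD, n = 4), a fold of 0.638, with a 95% interval from -1.05 to -0.25. IL6 did not pass limma's test over all probes (unadjusted p = 0.011, adjusted p = 0.764), and its coefficient was lower than that of all but 0.141% of probes.

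The dimmer IL6 probe (A_72_P680394) gave -0.43, -0.41, 0.23 and -0.44 on arrays 1 to 4, so that array 3 alone was above 0. Its mean was -0.26 ± 0.33 (SD, n = 4; adjusted p = 0.764 in limma). Without array 3 it was -0.43 and without array 1 -0.10. In Agilent's own ratio, which was normalized by the scanner software, the probes lay closer together on each array: the dimmer one gave -0.65, -0.34, -0.10 and -1.25 and the brighter one -0.71, -0.40, -0.30 and -1.37. There both probes were below 0 on all arrays.

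LIF, the other ligand that signals through IL6ST and a factor of attachment in several mammals, stood near 0 except on array 1. Its ratios were -0.54, -0.04, -0.05 and 0.01 on arrays 1 to 4. The mean was -0.15 ± 0.26 (SD, n = 4; adjusted p = 0.764), with a 95% interval from -0.44 to 0.13. The probe was dim, with 7 of 8 readings well above background, and the missing one was the control reading of array 1. Its size moved with the processing: with no background correction LIF had a mean of -0.40, and without array 1 it was -0.03. In Agilent's ratio, which differs in both background and dye normalization, it was -1.30, -0.78, -1.29 and 0.24, with array 4 as the only one above 0.

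Of 21 other genes of IL6 family signalling, 8 were tested, 4 below 0 and 4 above, with a median of -0.02. The median of all named genes was also -0.02, and that of all probes 0.02. None of the 8 passed limma's adjusted test, and 1 had an unadjusted p under 0.05, as had 3.32% of named genes. JAK1, a kinase bound to the receptor, was that gene, at -0.24 (SE 0.08; adjusted p = 0.764), but 4 of its 5 probes were above 0. The kinase TYK2 was 0.12 (SE 0.07) and the kinase JAK2 -0.39 (SE 0.35), with -1.84 on array 1 alone. The other JAK2 probe was above 0, at 0.17. The shared receptor chain IL6ST was -0.13, STAT3 -0.05 and SOCS3, the feedback inhibitor that STAT3 induces, 0.07.

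**Figure D1:**
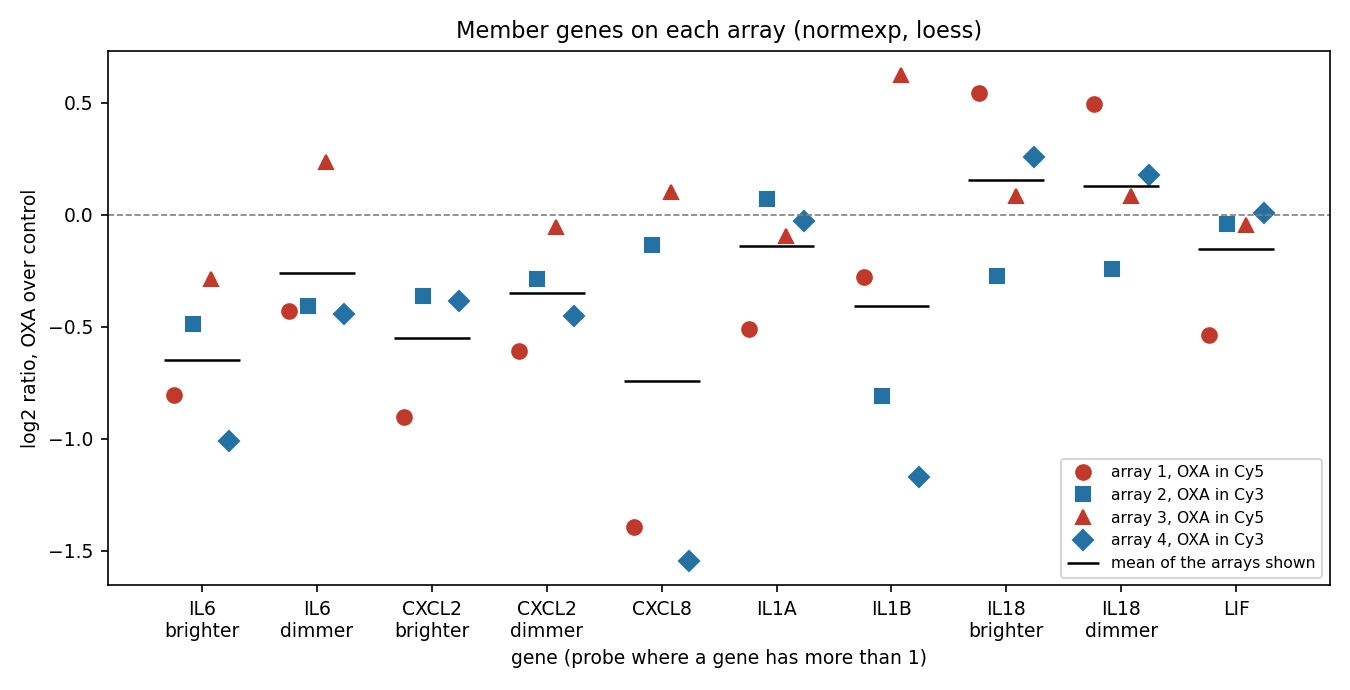
Log2 ratio of OXA over control (vertical axis) for all 10 probes of the 7 genes (horizontal axis), 1 point per array, coloured by the dye that carried OXA, with the mean as a black line. The brighter IL6 probe and the dimmer CXCL2 probe lie below 0 on 4 of 4 arrays, CXCL8 lies near -1.40 and -1.55 on arrays 1 and 4 and near 0 on arrays 2 and 3, and IL18 has a mean above 0.

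CXCL8, a major neutrophil attractant formerly called IL8, had the most negative mean of the 7 genes and the widest spread. Arrays 1 and 4 gave -1.40 and -1.55, whereas arrays 2 and 3 gave -0.14 and 0.10. Both pairs hold 1 array of each dye orientation, so the split did not follow the dye (dye coefficient 0.10, SE 0.37). The mean was -0.74 ± 0.85 (SD, n = 4), with a 95% interval from -1.79 to 0.30, and did not pass limma's test (unadjusted p = 0.118, adjusted p = 0.764). Without array 1 it was -0.37 and without array 4 -0.39, while without array 2 or 3 it was -1.10 or -1.12.

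CXCL2, another neutrophil attractant, was below 0 on 4 of 4 arrays by its dimmer probe (A_72_P732383), at -0.61, -0.29, -0.05 and -0.45 on arrays 1 to 4. Its mean was -0.35 ± 0.24 (SD, n = 4; unadjusted p = 0.0408, adjusted p = 0.764), a fold of 0.784, with a 95% interval from -0.68 to -0.02. The brighter probe (A_72_P146411) was not tested, because its spot on array 3 was marked by the scanner software as non-uniform in Cy3. It was -0.90, -0.36 and -0.39 on arrays 1, 2 and 4. With that spot kept it was 0.69 on array 3, and the mean went to -0.24 (SE 0.29; adjusted p = 0.769). Pig CXCL2 has close relatives, and the files used here do not give probe sequences, so signal shared between such copies cannot be told apart.

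In the reference gene table the genes AMCF-II and PPBP lie between CXCL8 and CXCL2, in one cluster of chemokines. Of 11 other neutrophil chemokines, their receptors and colony-stimulating factors, 4 were tested. All 4 were below 0, as were 57.4% of named genes, and their median was -0.31. Their medians on arrays 1 to 4 were -0.39, -0.68, 0.35 and -0.74, and the median coefficient was -0.12 without array 1 and -0.61 without array 3. None passed the adjusted test, and 1 had an unadjusted p under 0.05, as had 3.32% of named genes. PPBP, a platelet and neutrophil chemokine, was that gene, at -0.55 (SE 0.11; unadjusted p = 0.00768, adjusted p = 0.764). Its arrays split by dye, with 0.06 and 0.15 where OXA was in Cy5 and -0.94 and -1.46 where it was in Cy3. AMCF-II, a neutrophil chemokine of the pig, was -0.48, -0.31, 0.53 and -1.31 on arrays 1 to 4, so it was above 0 on array 3 alone. CSF3, which drives neutrophil production, was -0.22 (SE 0.16). CSF2, a growth factor for granulocytes and macrophages, was -0.12 (SE 0.43) and ran from -1.02 on array 1 to 1.34 on array 3.

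IL1B, the secreted proinflammatory cytokine, was -0.28, -0.81, 0.62 and -1.17 on arrays 1 to 4. It was lowest where OXA was in Cy3, with a mean of -0.99, against 0.17 where OXA was in Cy5. The mean of all arrays was -0.41 ± 0.78 (SD, n = 4; unadjusted p = 0.0896, adjusted p = 0.764), with a 95% interval from -0.92 to 0.10. The dye coefficient was 0.58 (SE 0.18; unadjusted p = 0.0344, adjusted p = 0.932), larger in size than the OXA coefficient, but without array 3 the order turned, with 0.36 for the dye and -0.63 for OXA. Without array 1 the OXA coefficient was -0.18. For the dye coefficient an unadjusted p under 0.05 was seen in 3.87% of probes, and an adjusted p under 0.05 in 0 (0%). Of the 7 genes only IL1B had such an unadjusted p for the dye. Its size also moved with the processing: in Agilent's ratio array 4 was -2.81 and the mean -0.93.

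IL1A, the cell-bound relative encoded next to IL1B with no protein-coding gene between them, did not share that pattern. It was -0.51, 0.07, -0.10 and -0.03 on arrays 1 to 4, with a mean of -0.14 ± 0.26 (SD, n = 4; adjusted p = 0.764) and a 95% interval from -0.40 to 0.12. Array 1 alone was clearly below 0, and without it the value was -0.04.

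IL18, an inducer of interferon gamma in lymphocytes, was the only one of the 7 genes with a mean above 0. Its brighter probe gave 0.54, -0.27, 0.08 and 0.26 on arrays 1 to 4 and its dimmer probe 0.49, -0.24, 0.08 and 0.17, so the probes followed each other. The mean was 0.15 ± 0.34 (SD, n = 4; adjusted p = 0.764), with a 95% interval from -0.23 to 0.54. Array 2 was on the other side of 0 with both probes. The brighter probe was 0.04 without array 1, 0.02 without array 4, 0.29 without array 2 and 0.27 without array 3.

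Of 29 other genes of IL1 family signalling, 8 were tested, 4 below 0 and 4 above, with a median of -0.02. None had an unadjusted p under 0.05. CASP1, the protease that matures IL1B and IL18, was -0.23 (SE 0.12), at -0.44 and -0.42 on arrays 1 and 2 and -0.01 and -0.03 on arrays 3 and 4. IL1B2 was -0.19 (SE 0.10) by its brighter probe and -0.03 by the other. IL1B and IL1B2 are near copies, and how far their probes share signal was not tested. The ubiquitin ligase TRAF6 and the kinase IRAK4, which pass the signal from the IL1 receptor, were -0.09 (SE 0.08) and 0.09 (SE 0.09).

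Of the 7 genes, 6 were below 0, where 42.9% of all probes and 57.4% of the 2407 named genes were below 0. In the fit reported, an unadjusted p under 0.05 was found for 2 of the 7, IL6 and CXCL2, against 1.89% of probes and 3.32% of named genes. Without array 1, which is also what the slide as a block amounts to, neither was under 0.05 (unadjusted p = 0.0828 for IL6 and 0.0629 for CXCL2 in limma), and neither was with median centring (0.5 and 0.996). CXCL2 alone also lost it with no background correction (0.0755), Agilent's ratio (0.224), an intensity trend with robust fitting (0.0933), and without array 2 (0.0581) or 4 (0.118). In the fit reported the dimmer IL6 probe was not under 0.05 either (unadjusted p = 0.117 in limma). Nor was the brighter CXCL2 probe with its marked spot kept (unadjusted p = 0.454 in limma). Other member probes were under 0.05 in other settings. With no background correction limma gave an unadjusted p of 0.0274 for LIF, 0.0283 for IL1B and 0.0285 for the dimmer IL6 probe. In Agilent's ratio it gave 0.0161 for LIF and 0.0254 for IL1B, and with median centring 0.0422 for IL18. CXCL8 and IL1A were not under 0.05 there. Probes under 0.05 with a fold of at least 1.2 also rose, from 356 to 1405, 1829 and 4292 in these settings. In the fit reported, IL6 and CXCL2 were also lower by a fold of at least 1.2, as were 0.665% of probes. By that criterion 0 of the 7 were higher, against 0.657% of probes. None of the 7 was above 0 on 4 of 4 arrays, as 7.67% of probes were. The median of the 7 was -0.35, against -0.02 for named genes and 0.02 for all probes. The genes were taken up with earlier results of these arrays known, so these counts are a description.

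Of 27 genes of NF-kB, the transcription factor that IL1 and TNF activate, and its targets, 18 were tested. Of these 13 were below 0 and 5 above, where 57.4% of named genes were below 0, and the median was -0.08. That median was -0.03 without array 1 or 2, -0.13 without array 3 and -0.19 in Agilent's ratio. None had an unadjusted p under 0.05. NFKBIA, the inhibitor that NF-kB induces, was -0.34 (SE 0.12), at 0.04, -0.38, -0.56 and -0.46 on arrays 1 to 4. Its other probe was -0.11. CCL20, a chemokine for lymphocytes and dendritic cells, was -0.54 (SE 0.19), from -1.01 on array 1 to 0.00 on array 4. ICAM1, an adhesion molecule for leukocytes, was -0.29 (SE 0.10), and VCAM1, another one, was 0.28 (SE 0.11), with array 4 alone below 0.

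The levels in the separate dyes were brought to one scale between arrays, and in them differences of culture, dye and array cannot be told apart. For IL6 the control levels were 14.74, 14.82, 14.78 and 13.12 on arrays 1 to 4 and the OXA levels 13.94, 14.33, 14.49 and 12.11, in log2 intensity. Array 4 was the lowest in both RNAs, and the ranges of control and OXA overlapped. The SD of the control levels over the arrays was 0.83 and that of the OXA levels 1.10. CXCL8 ran from 14.57 to 16.01 in control and from 13.03 to 15.87 with OXA, and CXCL2 from 13.68 to 15.18 and from 13.23 to 14.89, again with array 4 lowest in both. IL1B had its lowest control level on array 1, at 11.95, and its highest on array 2, at 13.28. IL1A, IL18 and LIF varied less, with control ranges of 0.51, 0.39 and 0.39. The OXA and control levels overlapped for all 7 genes, and the OXA levels all lay below the control levels for 0.123% of probes.

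**Figure D2:**
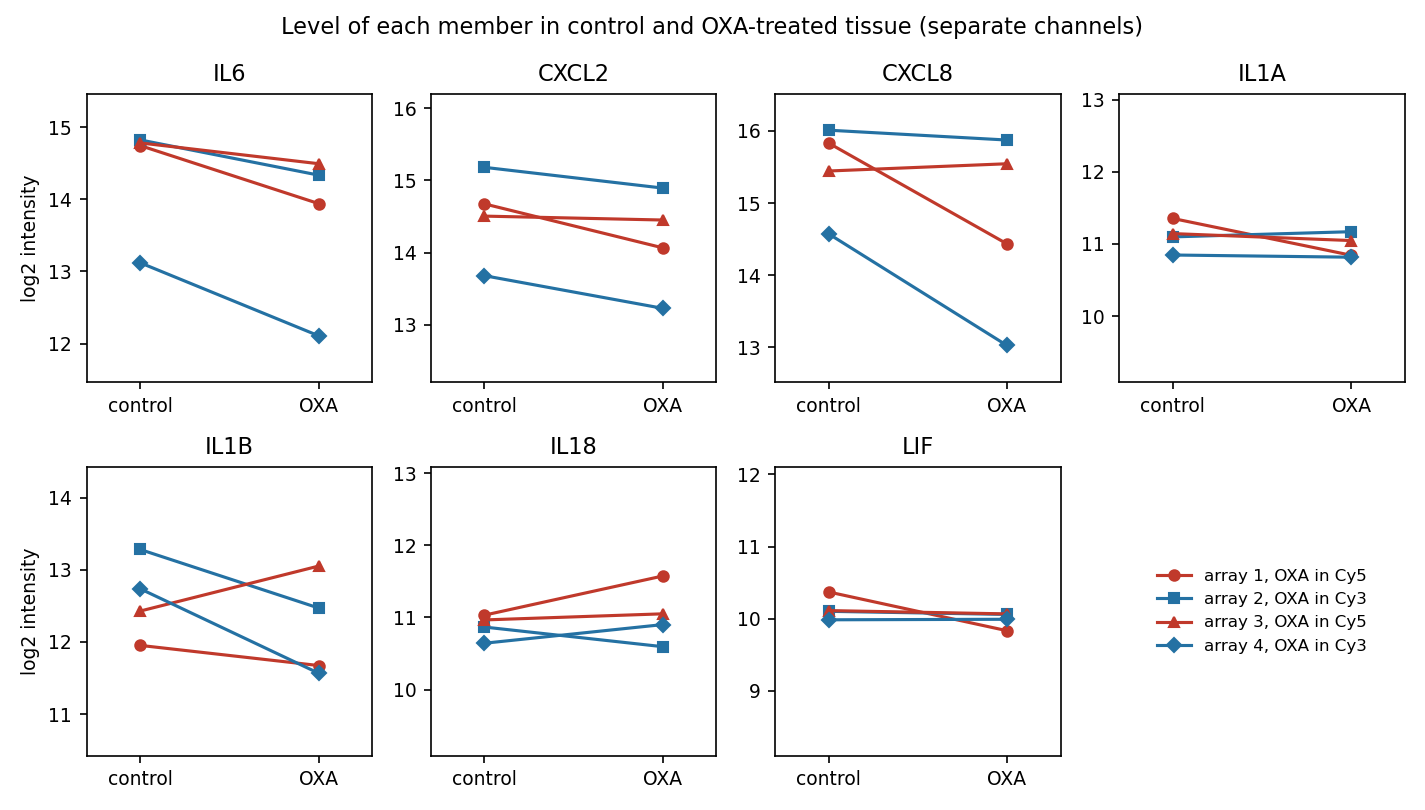
Log2 intensity (vertical axis, 4 log2 units in each panel) of each gene in control and OXA-treated tissue (horizontal axis), with 1 line per array coloured by the dye of OXA; CXCL2 is shown by its dimmer probe. For IL6, CXCL2 and CXCL8 array 4 has the lowest level on both sides, and the lines of IL6 (brighter probe) go down on all 4 arrays.

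By the root mean square difference over the 4 arrays, the named genes most like IL6 were SMAD3 (a transcription factor of TGF-beta signalling) at 0.30, SLA-DRA (an antigen-presenting chain) at 0.33 and CXCL2 at 0.33. Those most like CXCL8 were IL6 at 0.48, AMCF-II at 0.53 and ARG1 (arginase) at 0.53. SMAD3 was -0.93, -0.50, -0.02 and -0.49 on arrays 1 to 4. These likenesses rest on 4 arrays and are a description.

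Markers of other cell types moved on the same arrays. Of 14 neutrophil markers 4 were tested, with medians of 0.06, -0.48, 0.38 and -0.56 on arrays 1 to 4. S100A8, an abundant neutrophil protein, was -0.01, -1.26, 1.07 and -1.65, with array 3 highest, then 1, 2 and 4. That is also the order of the arrays for IL1B and for the marker S100A12. The other tested markers did not share it: S100A9 was 0.12, -0.29, 0.09 and -0.10, and LTF 0.28, -0.03, -0.01 and 0.00. Genes outside the neutrophil marker list had the same order of arrays, among them PPBP, TAB1 of the IL1 family list, and CCL5, NOS2 and VCAM1 of the NF-kB list. The order was thus not particular to neutrophil markers, and it does not tie IL1B to them. How many of all probes have that order was not counted. The summed level of the 4 tested neutrophil markers ran from 12.17 to 14.23 in control and from 12.21 to 13.75 with OXA, in log2 intensity. Of 12 macrophage and myeloid markers 7 were tested, with medians of 0.59, -0.51, 0.23 and -0.55 and summed levels from 13.62 to 15.00 in control and from 13.76 to 14.79 with OXA. The 8 tested of 12 T and NK cell markers had medians of 0.10, -0.24, 0.21 and -0.14 and summed levels from 13.14 to 14.29 and from 13.28 to 14.18. In each of these immune lists the median was above 0 where OXA was in Cy5 and below 0 where it was in Cy3. The myeloid marker TYROBP had a dye coefficient of 0.74 (unadjusted p = 0.00582 in limma) and an OXA coefficient of -0.04. For the myeloid marker LYZ they were 0.20 (unadjusted p = 0.226 in limma) and 0.06. The cause of that split was not tested. No marker with a probe was at background in all readings. On array 1, where CXCL8 was -1.40, the 5 tested of 11 epithelium markers had a median of -1.04 and the 4 tested of 9 stromal fibroblast markers 1.45; on array 4, where CXCL8 was -1.55, they were 0.64 and 0.15. Summed levels of the epithelium markers ran from 16.10 to 17.48 in control and from 16.25 to 16.79 with OXA, and those of the stromal ones from 14.69 to 15.90 and from 14.61 to 16.36. The part of these cell types in the values of the 7 genes was not tested.

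**Figure D3:**
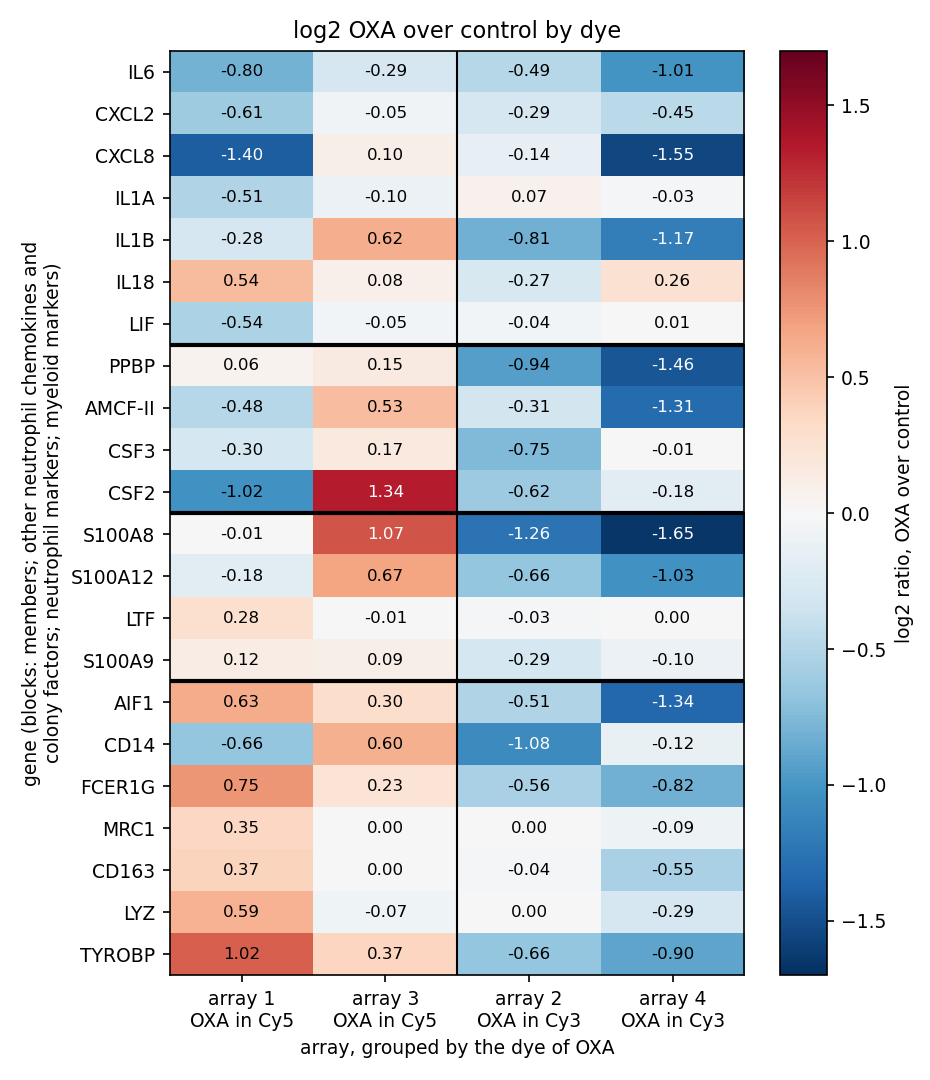
Log2 ratio of OXA over control in colour and digits for the 7 genes, the other tested neutrophil chemokines and colony-stimulating factors, the neutrophil markers and the myeloid markers (rows, in blocks), on each array (columns, with the arrays of OXA in Cy5 on the left). IL6, shown by its brighter probe, and CXCL2, shown by its dimmer probe, are below 0 in all columns. By contrast, IL1B, PPBP and S100A8 are lower in both right columns than in the left ones.

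Under the shared protocol text, with OXA in Cy5 throughout, the values of arrays 2 and 4 turn their sign. IL6 was then -0.80, 0.49, -0.29 and 1.01, with a mean of 0.10, and CXCL2 had a mean of 0.0192, CXCL8 of 0.10 and IL1B of 0.58 (adjusted p = 0.905). The brighter IL6 probe and the dimmer CXCL2 probe thus were below 0 on all arrays only under the dyes of the single samples. The deposited value table also follows those dyes.

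The values depended on the loess step, which moved the bright genes most. It moved the dimmer IL1A and IL18 as well, by 0.98 and 0.90 on array 3, and LIF by 0.06. With each array only centred on its median, IL6 was 0.42, -1.47, 1.98 and -1.84 on arrays 1 to 4, so that loess had moved it by more than its final ratio on arrays 1 to 3 (by 2.26 on array 3). Under that scaling the median of all probes was 0.14, IL6 was -0.23, CXCL8 -0.37, IL1B -0.05, CXCL2 0.00 and IL1A 0.21, so that IL1A, CXCL2 (0.0017) and the dimmer IL6 probe (0.165) changed sign. In Agilent's ratio IL6 was -0.70 (SD 0.48, n = 4), CXCL8 -0.72, CXCL2 -0.32, IL1A -0.37, IL18 0.43 and LIF -0.78, each on the same side of 0 as with loess. None of the 7 genes passed an adjusted p of 0.05 under any setting run, and the adjusted p of IL6 ran from 0.162 to 1.

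**Figure D4:**
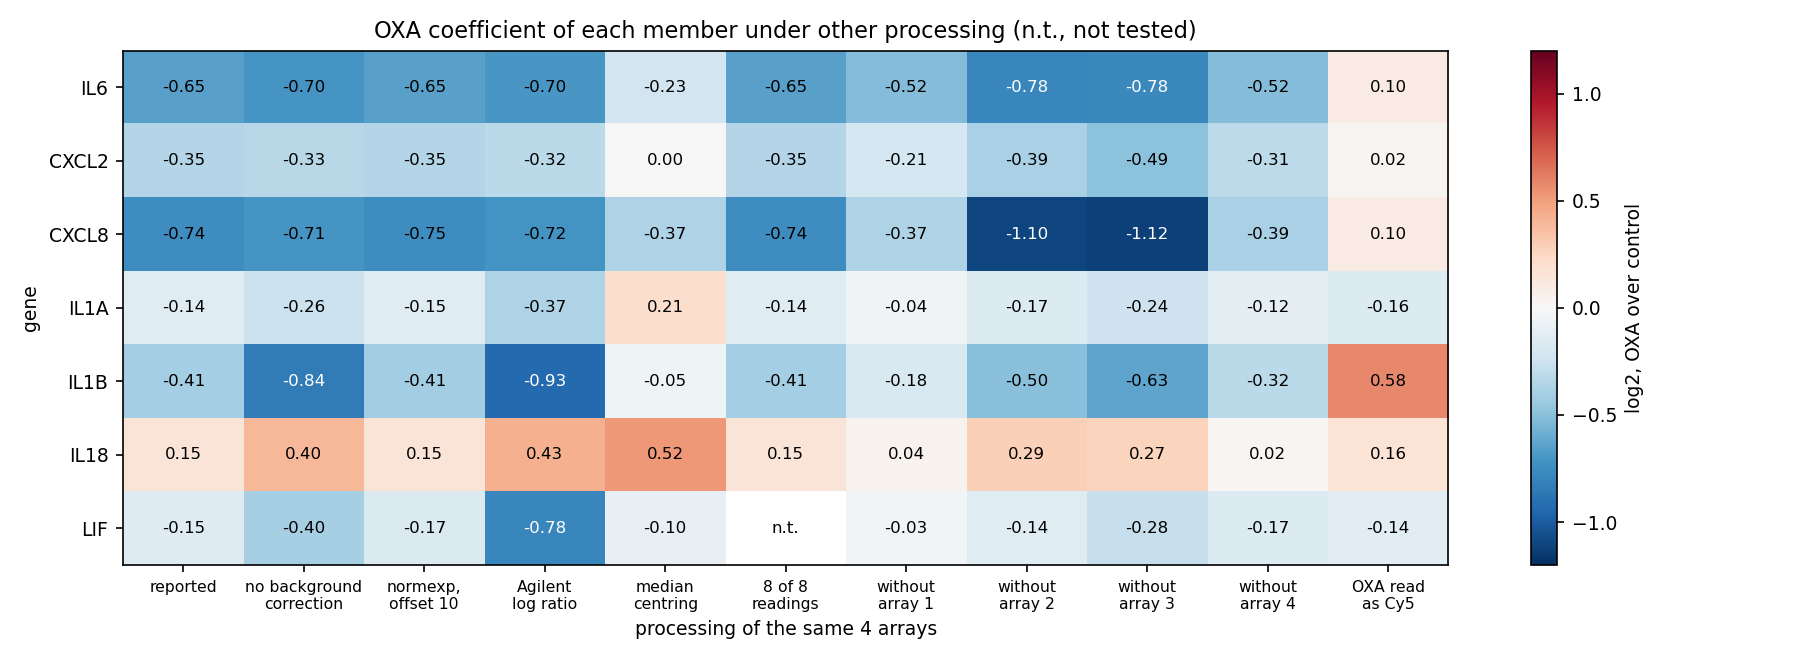
OXA coefficient in log2 (colour and digits) of each gene (rows; CXCL2 by its dimmer probe) as reported and under 10 other settings (columns). IL6 stays between -0.78 and -0.23 with the dyes of the single samples, CXCL8 between -1.12 and -0.37, and IL18 above 0, and the column on the right shows the other reading of the dyes.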

How the data were processed

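The members and the gene lists were chosen with earlier results of these data known. Per the file headers, the deposited scanner output came from Agilent's Feature Extraction (10.7.3.1) and holds median intensity values of each spot and its local background in both dyes, with a log10 ratio (red over green) that the software had background-subtracted and dye-normalized. A deposited value table gives the authors' log2 ratios. Set against the scanner ratios over 43420 probes, its columns had slopes of 1.06, 1.00, 1.04 and 1.03 in the direction of OXA over control under the labels of the single samples, and 68.9% to 83.4% of values were equal within 0.001. Its column medians were -0.17, 0.06, -0.06 and 0.09; why the rest differ, and the centring, stay unknown.

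Intensities were corrected with normexp (offset 50), normalized by loess within arrays, and fitted in limma 3.58.1 (R 4.3.3) with an OXA and a dye coefficient. Control and outlier-marked spots were left out, spots of a probe averaged, and probes kept when well above background in at least 4 of 8 readings; 135 were lost to outlier spots. The fit had 2 residual degrees of freedom, 3.89 after moderation, and Benjamini-Hochberg adjustment ran over the 26927 probes tested. Of 7125 probes with a RefSeq accession 6700 matched the gene table of assembly Sscrofa11.1, and a gene is represented by its brightest probe tested. The array headers name no genome build, so no coordinates are given. Levels in separate dyes are loess values brought to one scale by Aquantile, and may carry dye bias on a single array. The labels give 4 separate experiments but do not say if an array's RNAs came from the same gilt, and p-values measure the spread between arrays of 1 dye orientation. The text names every probe of the members, up to 4 genes of each of 4 pathway lists by lowest unadjusted p with a few others chosen after their values were seen, and the 3 named genes nearest to IL6 and to CXCL8. One gene that the rule names is not reported here. The scripts were tested on simulated data. Alternatives are listed in the closing section.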

Additional observations from a re-analysis of the deposited data

Results flagged for a closer look

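Among the 9 member probes tested and the 4 list medians, 2 results had 1 array far from the other 3 by Dixon's criterion, which marks about 1 in 20 groups by chance. The dimmer IL6 probe was 0.23 on array 3, while the other arrays lay from -0.44 to -0.41. LIF was -0.54 on array 1, while the others lay from -0.05 to 0.01, and the control reading of array 1 was the one not well above background.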

How the results depend on the processing

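No probe passed an adjusted p of 0.05 in limma under any of the alternatives. Probes with a fold of 1.2 or more at an unadjusted p under 0.05 numbered 356, against 1405 with no background correction, 1829 with Agilent's ratio, 1824 with the authors' value table, 4292 with median centring, 681 with OXA taken as Cy5 throughout and 193 with array weights. Leaving out 1 array gave 286 to 3125, with 3125 without array 3 and 2050 without array 4. With OXA read as Cy5 the sign turned for IL6 (0.10), its dimmer probe (0.16), CXCL2 (0.0192), CXCL8 (0.10) and IL1B (0.58). With median centring it turned for CXCL2 (0.0017), IL1A (0.21) and the dimmer IL6 probe (0.165), and the dye coefficient of IL1B was 1.65 (adjusted p = 0.0342). The cause was not tested beyond the construction of these settings. All other alternatives kept the direction of the 7 genes, and leaving out 1 array gave -0.78 to -0.52 for IL6 and -0.49 to -0.21 for CXCL2. The mean of both probes was -0.45 for IL6 and 0.14 for IL18. The IL6 family median was -0.15 with Agilent's ratio, -0.15 with the authors' table and 0.14 with median centring. The IL1 family median was -0.11 with no background correction, 0.15 with median centring and -0.11 to -0.0030 with 1 array left out. The neutrophil chemokine median was 0.35 with OXA read as Cy5 and -0.61 to -0.12 with 1 array left out. The NF-kB median was 0.0722 with median centring, 0.10 with OXA read as Cy5, -0.19 with Agilent's ratio and -0.13 to -0.03 with 1 array left out. Array 1 was alone on its slide, so the slide as a block gave the values without array 1. The setting with outlier spots kept was chosen after seeing the data. LIF could not be tested with all 8 readings required. Each array already compares an OXA-treated with a control RNA as a ratio. No further pairing was possible, because the replicate number names 1 array only and the labels do not tie each RNA to a gilt.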
